A study of Homo sapiens with 4 samples.

Results

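The nuclear genes for respiratory complexes II to V were followed in ribosome footprints and matched RNA from 2 lines of human SW480 colorectal carcinoma cells. Genes were taken when their symbol began with UQCR, COX4, COX5, COX6, COX7, COX8 or ATP5, or was CYC1, CYCS, SDHA, SDHB, SDHC or SDHD, in all 4 count tables. This gave 52 of the 19192 genes, of which 4 belong to complex II, 10 to complex III, 17 to complex IV and 20 to complex V, and CYCS carries electrons between complexes III and IV. Of the 52, 44 encode structural subunits, counting isoforms of other tissues. The other 8 are CYCS, the copies UQCRHL, ATP5EP2 and ATP5L2, the read-through gene ATP5J2-PTCD1, the supercomplex factor COX7A2L, and ATP5S and ATP5SL, which share the prefix without being subunits. The older symbols of the deposited tables are used here.

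Electrons from succinate enter the inner mitochondrial membrane through complex II, pass through complex III to cytochrome c, and reach oxygen at complex IV. The proton gradient built by complexes III and IV drives complex V, the ATP synthase, in which a ring of c subunits in the membrane turns a central shaft inside the F1 head while a peripheral stalk holds the head still. Complexes III to V combine a few subunits made inside mitochondria with many small nuclear-encoded ones, so their assembly joins products of separate translation systems.

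The first line was labelled LIN28B OE, an overexpression of the RNA-binding protein LIN28B, and the second LIN28B OE+IMP1-/- knockout, so both carried the LIN28B label. The labelled difference was IMP1, product of IGF2BP1 and itself a binder of mRNAs, and the comparison sets mRNA levels and ribosome occupancy side by side in lines that differ in that label. For each line 1 footprint library and 1 RNA library were made, each from 3 pooled plates, and whether the knockout line is 1 clone is not given in the sources used here. No difference has a replicate check, since each line gave 1 library in each assay, and no test was made. The 95% intervals are exact binomial ones for the mRNA and footprint ratios, and from the 4 counts for their difference, and they cover counting error only.

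Sets of near-identical or related coding sequences decide how far single members can be read, and the closest of them are printed here from GENCODE 29 transcripts (GRCh38), 5′ to 3′ without the stop codon. ATP5E (chromosome 20, 59025467 to 59032382, minus strand) encodes the epsilon subunit of the F1 head, and ATP5EP2 (chromosome 13, 27945260 to 27945415, plus strand) is annotated as its processed pseudogene. Their 153 bases differ at 6 positions, given in capitals, and the longest run they share is 64 bases.
ATP5E: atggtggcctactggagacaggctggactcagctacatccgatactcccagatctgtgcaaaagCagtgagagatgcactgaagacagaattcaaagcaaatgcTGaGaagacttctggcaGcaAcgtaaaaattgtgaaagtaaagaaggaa
ATP5EP2: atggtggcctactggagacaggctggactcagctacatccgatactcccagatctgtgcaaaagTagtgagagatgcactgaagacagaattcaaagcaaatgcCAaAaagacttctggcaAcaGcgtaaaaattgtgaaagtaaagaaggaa

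UQCRH (chromosome 1, 46303631 to 46316776, plus strand) encodes the hinge protein of complex III, and UQCRHL (chromosome 1, 15807169 to 15809348, minus strand) is a copy in 1 exon. They differ at 4 of 273 bases, in capitals, and share a run of 157 bases. Footprints of 18 to 34 nt were selected, and 70.9% of the 30-base windows of UQCRH and of UQCRHL, and 36.3% of those of ATP5E and of ATP5EP2, occur in another annotated gene. How reads with such letters were assigned is not given in the sources used here.
UQCRH: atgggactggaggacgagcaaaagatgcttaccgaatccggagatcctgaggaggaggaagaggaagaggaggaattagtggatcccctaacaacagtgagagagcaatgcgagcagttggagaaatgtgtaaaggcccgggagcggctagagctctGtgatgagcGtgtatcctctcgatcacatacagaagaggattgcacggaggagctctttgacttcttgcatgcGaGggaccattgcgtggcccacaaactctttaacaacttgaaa
UQCRHL: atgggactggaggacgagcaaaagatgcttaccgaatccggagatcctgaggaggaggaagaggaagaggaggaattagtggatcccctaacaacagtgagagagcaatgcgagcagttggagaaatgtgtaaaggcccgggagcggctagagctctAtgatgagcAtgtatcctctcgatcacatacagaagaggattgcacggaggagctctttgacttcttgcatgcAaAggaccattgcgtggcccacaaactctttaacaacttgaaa

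The c ring is encoded by ATP5G1 (chromosome 17, 48892817 to 48895869), ATP5G2 (chromosome 12, 53665183 to 53676398) and ATP5G3 (chromosome 2, 175176258 to 175184607), whose last 77 translated residues are identical. The 231 coding bases of those residues are printed, with capitals at the 57 positions where the genes do not all have the same base. Over the whole coding sequence the longest run shared by any pair was 17 bases, under the shortest selected footprint, so an exactly matching footprint fits only 1 of these 3 genes. It may still fit a gene outside the 3. Of the 30-base windows of ATP5G1, ATP5G2 and ATP5G3, 28%, 29.7% and 6.8% occur in other annotated genes.
ATP5G1: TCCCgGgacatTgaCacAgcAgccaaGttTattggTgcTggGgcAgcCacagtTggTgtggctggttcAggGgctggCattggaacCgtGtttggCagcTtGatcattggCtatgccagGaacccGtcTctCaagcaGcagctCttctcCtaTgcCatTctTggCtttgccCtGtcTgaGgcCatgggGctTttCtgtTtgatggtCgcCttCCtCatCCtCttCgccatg
ATP5G2: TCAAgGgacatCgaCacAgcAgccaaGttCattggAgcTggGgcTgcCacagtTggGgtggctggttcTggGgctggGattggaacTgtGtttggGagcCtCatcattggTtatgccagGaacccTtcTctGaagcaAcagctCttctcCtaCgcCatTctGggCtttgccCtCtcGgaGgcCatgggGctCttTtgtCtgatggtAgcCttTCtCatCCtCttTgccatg
ATP5G3: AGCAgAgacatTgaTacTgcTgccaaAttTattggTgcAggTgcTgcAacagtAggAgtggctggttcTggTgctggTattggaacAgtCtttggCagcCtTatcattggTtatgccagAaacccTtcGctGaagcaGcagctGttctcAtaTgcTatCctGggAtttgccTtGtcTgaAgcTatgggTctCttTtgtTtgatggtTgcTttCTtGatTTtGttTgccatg

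The OE-labelled RNA library held 5429224 counts and the knockout-labelled one 6813372, and the footprint libraries held 2732760 and 3260262. IGF2BP1 had 840 and 1974 RNA counts and 332 and 821 footprint counts in the OE-labelled and knockout-labelled libraries, so the libraries labelled as its knockout held more of it, and the lines are called by their labels throughout. LIN28B had 1205 and 303 RNA counts and 190 and 46 footprint counts. Of 11 colorectal epithelial markers, CDX1, CDH17, KRT20 and LGALS4 were at 0 in all 4 libraries, and the summed level was 10026 and 5160 CPM (counts relative to the library total) in RNA and 29528 and 15070.0 in footprints, higher in the OE-labelled line. KRT18 and KRT8 carried that sum, with 30815 and 18310 counts in OE-labelled RNA, while CDH1 of the same list was higher in the knockout-labelled line, at 0.89 in RNA and 1.11 in footprints on the log2 scale. The 6 haematopoietic markers summed to 12.5 to 31.9 CPM, with 2 at 0 in every library. The 8 fibroblast, endothelial and muscle markers summed to 24.7 to 55.2, with COL1A1 at 2 and 0 counts in the OE-labelled and 55 and 57 in the knockout-labelled RNA and footprint libraries. The part of these marker differences in any result was not tested. The OE-labelled RNA library also carries the cell line name SW840 beside a source of SW480.

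Most members stood close to level between the lines. Each ratio is the log2 of the scaled knockout-labelled count over the scaled OE-labelled count, genes with a mean count of at least 50 in the assay were taken as measured, and a difference of 1.5-fold was counted. In RNA 46 of the 52 members were measured, with a median log2 ratio of -0.08 and an interquartile range from -0.22 to 0.05, where the median of 9855 genes was 0.01 and the range -0.29 to 0.31. No member was at least 1.5-fold higher, against 10.5% of all genes, and 4 were at least 1.5-fold lower, against 10.5% of all genes. All 4 encode parts of complex V, namely ATP5G3, ATP5I, ATP5J and ATP5O. Scaled by total counts, with or without mitochondrially encoded genes, 1 member was higher and 1 lower, and ATP5G3, ATP5J and ATP5O were under 1.5-fold. The median of all genes was 0.13 under these scalings, and the shares of all genes past 1.5-fold are not given for them. In these bulk libraries fewer cells holding an mRNA and less of it per cell cannot be told apart.

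Footprints, which count ribosomes on an mRNA, were measured for 44 members with a median log2 ratio of -0.03, against 0.02 over 7323 genes. The higher members were ATP5EP2, COX7C and UQCR10, so 3 passed 1.5-fold upward where 15% of all genes did. The lower members were ATP5I, ATP5J, ATP5O and UQCRFS1, so 4 passed it downward where 14.1% of all genes did. Translational efficiency, the footprint log2 ratio minus the mRNA log2 ratio, had a median of 0.08 over the 44 members and -0.00 over 7260 genes. It was at least 1.5-fold higher for ATP5EP2, ATP5G3, COX7A2 and COX7C, 4 members against 13.4% of all genes, and lower for ATP5G2, 1 member against 12.9%. In either direction 8.70% of measured members passed 1.5-fold in RNA (all genes 21%), 15.9% in footprints (29%) and 11.4% in translational efficiency (26.3%). Many genes of the whole table have lower counts than these members, so the shares were also taken at a mean count of at least 200. There 3 of 42 members passed in RNA (all genes 13.6%), 5 of 39 in footprints (19.1%) and 5 of 39 in translational efficiency (13.4%), the last close to the share of all genes. Across the 44 members, which are not replicates and share the 4 libraries, the mRNA and footprint ratios went together with r = 0.48 (Pearson) and rho = 0.27 (Spearman), against 0.51 and 0.41 over all genes. At 2-fold ATP5I was lower in RNA (all genes in either direction 6.48%), ATP5EP2 was higher and ATP5O lower in footprints (9.09%), and ATP5EP2 was higher in translational efficiency (7.25%).

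**Figure D1:**
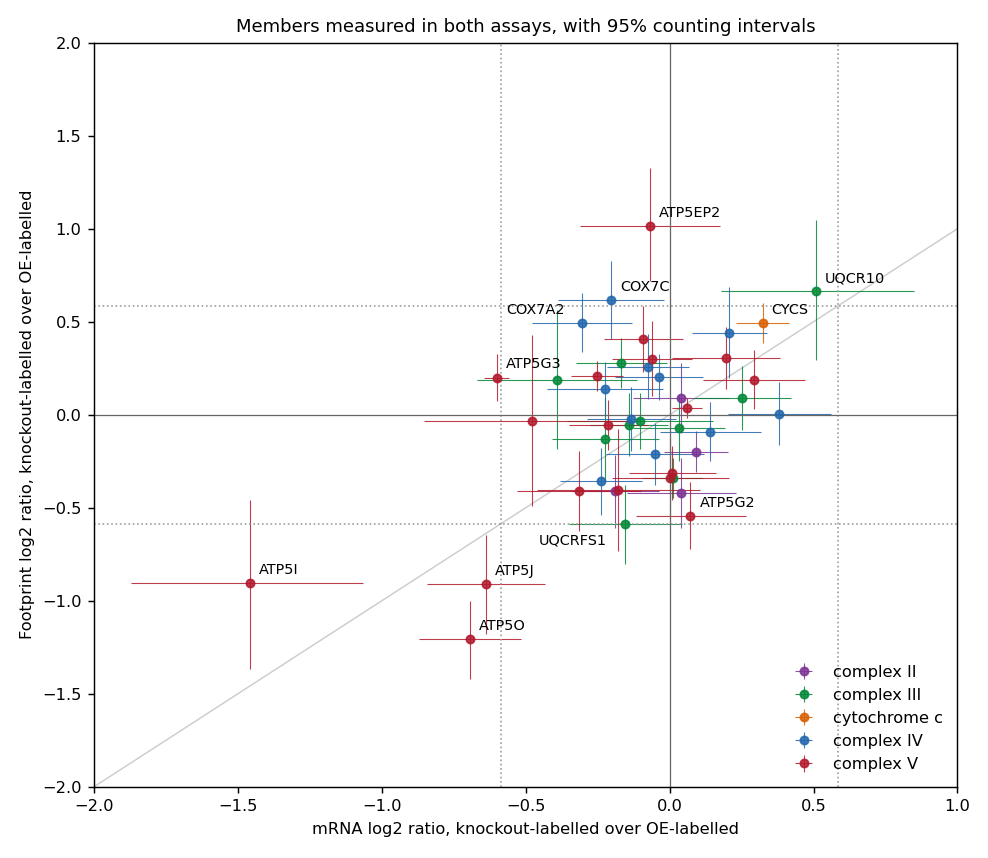
Each point is a member measured in both assays, with the log2 ratio of knockout-labelled over OE-labelled RNA on the x axis and of footprints on the y axis, coloured by complex. Most points lie near the origin, ATP5I, ATP5J and ATP5O lie to the lower left, and ATP5EP2, COX7C and ATP5G3 stand above the diagonal.

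Complex II, which oxidises succinate in the citric acid cycle, was level in RNA and mostly lower in footprints. SDHA, the flavoprotein that binds succinate, had 1118 and 1623 RNA counts and 1337 and 1411 footprint counts in the OE-labelled and knockout-labelled libraries. Its log2 ratio was 0.09 in RNA (-0.02 to 0.20) and -0.20 in footprints (-0.31 to -0.09). SDHC, a membrane anchor, had 644 and 768 RNA counts and 449 and 409 footprint counts, with a footprint log2 ratio of -0.41 (-0.61 to -0.21). The other anchor, SDHD, had a footprint log2 ratio of -0.42 (-0.61 to -0.23) from 490 and 443 counts, while SDHB, the iron-sulphur protein, stood at 0.09 (-0.10 to 0.28). No subunit of complex II reached 1.5-fold in either assay. The medians of the complex were 0.04 in RNA, -0.30 in footprints and -0.26 in translational efficiency. SDHD and SDHC share 95.8% and 64.6% of their 30-base windows with other annotated genes, and SDHA 45.6%, so reads of these genes may be split among copies.

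Complex III, the cytochrome bc1 complex, showed no common direction. UQCRC1, a core protein, had 1261 and 1729 RNA counts and 1460 and 1395 footprint counts, giving a log2 ratio of 0.01 in RNA (-0.10 to 0.12) and -0.34 in footprints (-0.45 to -0.24). Its partner UQCRC2 stood at 0.25 in RNA (0.09 to 0.42) and 0.09 in footprints (-0.08 to 0.26). In the core pair, which forms a dimer within the complex, UQCRC1 thus lay below 0 in footprints while the interval of UQCRC2 held 0. UQCRQ, a small accessory subunit, had 805 and 994 RNA counts and 530 and 618 footprint counts, and its footprint log2 ratio of -0.05 held 0 in its interval (-0.22 to 0.12). CYC1, the haem-bearing cytochrome c1, was also level, at 0.03 in RNA and -0.07 in footprints.

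UQCRFS1, the Rieske iron-sulphur protein, had 394 and 482 RNA counts but 415 and 334 footprint counts. Its footprint log2 ratio was -0.59 (-0.80 to -0.38), just past 1.5-fold, where its mRNA stood at -0.15 (-0.35 to 0.04). The footprint ratio was under 1.5-fold in 4 of 9 alternatives, namely both total-count scalings, upper-quartile factors and subtraction of the median of neighbouring genes (-0.33). Those of the 9 that change only the minimum mean count could not move this ratio. UQCR10, a small accessory subunit, went the other way, with 115 and 223 RNA counts and 92 and 177 footprint counts. It was 1.42-fold higher in RNA (log2 0.51, 0.18 to 0.85) and 1.58-fold higher in footprints (0.66, 0.30 to 1.05), so the footprints went with the mRNA, and after subtraction of neighbours the footprint ratio was 0.50, under 1.5-fold. UQCRFS1, the last catalytic subunit to join the complex, and UQCR10 thus stood on opposite sides of 0. UQCRFS1 shares 74.4% of its windows with its pseudogene and other genes, while UQCR10 shares none, and UQCR11, which shares 100% of them, had a log2 ratio of -0.39 in RNA and 0.19 in footprints.

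UQCRH had 599 and 726 RNA counts and 779 and 1144 footprint counts, and its copy UQCRHL had 232 and 294 RNA counts and 662 and 783 footprint counts. Summed over both genes the log2 ratio was -0.15 in RNA (-0.28 to -0.02) and 0.14 in footprints (0.04 to 0.24). The copy took 27.9% and 28.8% of the summed RNA counts and 45.9% and 40.6% of the summed footprint counts in the OE-labelled and knockout-labelled lines. The larger share of footprints in UQCRHL held in both lines, and with 4 differing bases the assignment of these reads cannot be checked from gene counts. UQCRB, an accessory subunit, completed the complex at -0.22 in RNA and -0.13 in footprints.

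CYCS, the soluble cytochrome c that also has a part in apoptosis, was among the most abundant members. It had 1487 and 2532 RNA counts and 1105 and 1882 footprint counts. The log2 ratio was 0.32 in RNA (0.23 to 0.42) and 0.49 in footprints (0.38 to 0.60), or 1.25-fold and 1.41-fold higher in the knockout-labelled libraries. CYCS thus lay above 0 in both assays but under 1.5-fold, and 69.2% of its windows occur in other genes.

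Complex IV, cytochrome c oxidase, had 11 measured members, with medians of -0.08 in RNA, 0.14 in footprints and 0.23 in translational efficiency. COX7C, a small subunit of the membrane domain, had 446 and 527 RNA counts and 285 and 529 footprint counts. It was 1.53-fold higher in footprints (log2 0.61, 0.40 to 0.83) while its mRNA stood at -0.20 (-0.39 to -0.02), and its translational efficiency was 0.82 higher on the log2 scale (0.54 to 1.09). COX7A2, the widely expressed subunit VIIa, had 519 and 572 RNA counts and 528 and 901 footprint counts. Its log2 ratio was -0.30 in RNA (-0.48 to -0.13) and 0.49 in footprints (0.34 to 0.65), so translational efficiency was 1.74-fold higher (0.80, 0.57 to 1.03). In both genes mRNA and footprints stood on opposite sides of 0. COX7A2 shares 6.65% of its windows with other genes and COX7C 65.6%.

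The members of complex IV with the most RNA stood closer to level. COX7A2L, a relative of COX7A2 that joins complexes III and IV into supercomplexes, had 776 and 1220 RNA counts and 227 and 373 footprint counts, at 0.21 in RNA (0.08 to 0.34) and 0.44 in footprints (0.20 to 0.69). COX4I1, the largest nuclear-encoded subunit, had 713 and 921 RNA counts and 458 and 663 footprint counts, and its footprint log2 ratio was 0.26 (0.08 to 0.43). COX6A1 had 750 and 866 RNA counts and 523 and 494 footprint counts, and it was the lowest of the complex in footprints at -0.36 (-0.54 to -0.18), with 89.9% of its windows in other genes. COX7B, on the X chromosome, stood at 0.38 in RNA (0.20 to 0.56) and 0.00 in footprints, and its translational efficiency of -0.38 (-0.62 to -0.13) was the lowest of complex IV. The remaining COX5A, COX5B, COX6B1, COX6C and COX8A lay between -0.22 and 0.14 in RNA and between -0.21 and 0.20 in footprints.

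The 6 isoforms of other tissues were nearly silent. COX6A2 and COX7A1, the heart and skeletal muscle forms, and COX8C, a testis form, had 0 counts in every library, where a count of 0 allows up to 3 counts. COX4I2, the lung form, had 1 and 3 RNA counts and 0 and 2 footprint counts in the OE-labelled and knockout-labelled lines, and COX7B2, a testis form, had 0 and 4 RNA counts and no footprints. COX6B2, also a testis form, had 30 and 47 RNA counts, 11 and 15 footprint counts and 88.1% of its windows in other genes. Complex IV in both lines was therefore covered by the widely expressed isoforms COX4I1, COX6A1, COX6B1, COX7A2, COX7B and COX8A.

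Complex V had 20 members measured in RNA and 18 in footprints, and 20% of them passed 1.5-fold in RNA (all genes 21%), 22.2% in footprints (29%) and 16.7% in translational efficiency (26.3%), so the complex as a whole did not exceed the share of all genes. Its members past 1.5-fold were genes of the stalk, ring and membrane parts and the epsilon copy ATP5EP2. The head makes ATP and is built of alpha and beta subunits around a central gamma, delta and epsilon shaft. ATP5B, the catalytic beta subunit, had 5071 and 7193 RNA counts and 5377 and 6677 footprint counts, with log2 ratios of 0.06 in RNA (0.01 to 0.11) and 0.04 in footprints (-0.02 to 0.09). ATP5A1, the alpha subunit, had 1852 and 2116 RNA counts and 2074 and 2901 footprint counts, with -0.25 in RNA (-0.34 to -0.16) and 0.21 in footprints (0.13 to 0.29). The shaft subunits ATP5C1 and ATP5D were level in RNA, at 0.01 and 0.00, and lower in footprints, at -0.31 (-0.46 to -0.17) and -0.34 (-0.56 to -0.12). The 5 head subunits had medians of 0.00 in RNA and 0.04 in footprints, and none passed 1.5-fold.

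The 4 stalk subunits, which keep the head from turning with the ring, all lay below 0 in both assays. ATP5O, the OSCP subunit at the top of the stalk (chromosome 21, 33903453 to 33915980, GRCh38), had 576 and 485 RNA counts and 544 and 285 footprint counts. It was 1.62-fold lower in RNA (log2 -0.69, -0.87 to -0.52) and 2.31-fold lower in footprints (-1.21, -1.42 to -0.9996), the largest footprint difference among the measured members. Of the 30-base windows of ATP5O, 67.5% also occur in other annotated genes, so its reads may be split among them. ATP5J, the coupling factor F6 (chromosome 21, 25724480 to 25734972), had 424 and 371 RNA counts and 303 and 195 footprint counts. It was 1.56-fold lower in RNA (-0.64, -0.84 to -0.43) and 1.88-fold lower in footprints (-0.91, -1.18 to -0.65). The d subunit ATP5H stood at -0.32 (-0.53 to -0.10) and -0.41 (-0.62 to -0.19), and the b subunit ATP5F1 at -0.21 (-0.35 to -0.07) and -0.06 (-0.19 to 0.08). The stalk medians were -0.48 in RNA and -0.66 in footprints.

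The stalk genes with the larger differences lie on chromosome 21, and the genes around them stood low too. Of the 40 measured genes nearest ATP5J, other than members, 34 had an mRNA log2 ratio below 0, with a median of -0.47, and of the 40 nearest ATP5O 35 did, with a median of -0.56. Over all 103 other measured genes of chromosome 21 the mRNA median was -0.52, and over 77 genes the footprint median was -0.42. ATP5J and ATP5O therefore lay only 0.17 and 0.14 below their neighbours in RNA, at -0.17 and -0.14 after subtraction. In footprints ATP5O remained 1.5-fold below its neighbours (-0.81 after subtraction) and ATP5J did not (-0.43). Whether the lines differ in copies of chromosome 21 was not tested. ATP5J lies head to head with GABPA, whose 291 and 366 RNA counts gave -0.11 and whose 265 and 183 footprint counts gave -0.81 (-1.09 to -0.53), so these adjoining genes differed in RNA and both stood low in footprints.

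ATP5I, the membrane subunit e that takes part in joining ATP synthases into dimers (chromosome 4, 672436 to 674338), had the largest mRNA difference. It had 160 and 79 RNA counts and 107 and 69 footprint counts. This was 2.75-fold lower in RNA (log2 -1.46, -1.87 to -1.07) and 1.87-fold lower in footprints (-0.91, -1.37 to -0.46), and the translational efficiency of 0.55 held 0 in its interval (-0.03 to 1.14). Of the 40 nearest measured genes 33 were below 0 in RNA with a median of -0.59, which left ATP5I at -0.87 after subtraction, still past 1.5-fold. In footprints, subtraction of the median of the 40 nearest genes measured there left ATP5I at -0.42, under 1.5-fold. Those genes reached 37.2 Mb from it, against 6.24 Mb in RNA, so the footprint comparison is less local. None of its windows occur in another annotated gene. The other subunits of that membrane part, f and g, did not go with it. ATP5J2, subunit f, stood at 0.29 in RNA (0.12 to 0.47) and 0.19 in footprints (0.03 to 0.35), and ATP5L, subunit g, at -0.09 (-0.23 to 0.05) and 0.41 (0.23 to 0.58).

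**Figure D2:**
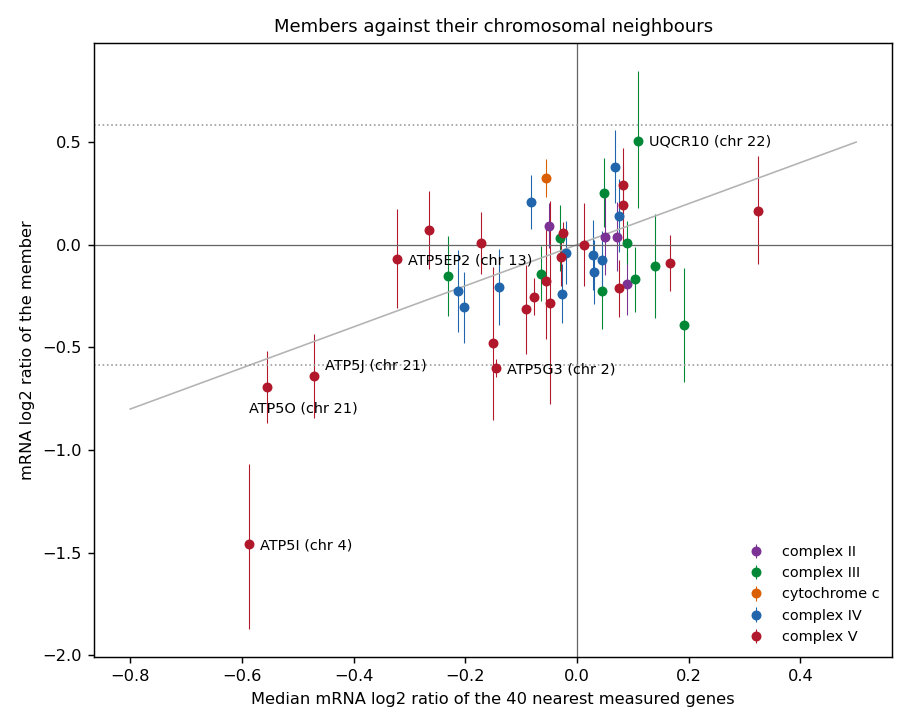
Each point is a measured member, with the median mRNA log2 ratio of its 40 nearest measured non-member genes on the x axis and its own mRNA log2 ratio on the y axis, and the diagonal marks equality. ATP5J and ATP5O lie near the diagonal at neighbour medians of -0.47 and -0.56, while ATP5I lies at -1.46 for a neighbour median of -0.59.

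The c ring genes, whose products are the same protein once imported and trimmed, differed among themselves. ATP5G3 had 9207 and 8266 RNA counts, the most RNA counts of any member in the OE-labelled and knockout-labelled lines, but only 853 and 1187 footprint counts. Its log2 ratio was -0.60 in RNA (-0.64 to -0.56) and 0.20 in footprints (0.07 to 0.33), so its translational efficiency was 1.74-fold higher (0.80, 0.67 to 0.93). ATP5G2 had 387 and 554 RNA counts and 561 and 466 footprint counts. It stood at 0.07 in RNA (-0.12 to 0.26) and -0.54 in footprints (-0.72 to -0.36), and its translational efficiency was 1.53-fold lower (-0.62, -0.87 to -0.36), or -0.57 and under 1.5-fold with upper-quartile factors. ATP5G2 and ATP5G3 thus lay on opposite sides of 0 in each measure. ATP5G1 had 125 and 122 RNA counts and 76 and 90 footprint counts, at -0.48 (-0.85 to -0.11) and -0.03 (-0.49 to 0.43).

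Summed over the 3 genes, footprints for the ring protein were level, at -0.05 (-0.15 to 0.05), although summed RNA stood at -0.56 (-0.61 to -0.52). ATP5G3 gave 94.7% (94.3 to 95.2, exact Clopper-Pearson) of the summed RNA counts but 57.2% (54.7 to 59.8) of the summed footprint counts in the OE-labelled line. In the knockout-labelled line it gave 92.4% and 68.1% (65.9 to 70.3), so its share of footprints was higher by more than counting error. ATP5G2 gave 37.7% and 26.7% of the footprint counts in the same order. The listed ATP5G3 transcript is 5484 bases long and its coding sequence begins at base 3026, so RNA counted over the whole transcript would include long noncoding stretches, and the counted part is not given in the sources used here. Per coding length RNA and footprints of this gene are therefore not on the same footing as those of the others. Its mRNA ratio and translational efficiency, and the summed RNA of the 3 genes, may also include noncoding counts, and their part was not tested.

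The copies caught by the ATP5 prefix need care. ATP5EP2 had 252 and 327 RNA counts and 128 and 314 footprint counts, the largest upward difference among measured members at 2.02-fold in footprints (log2 1.01, 0.72 to 1.33). ATP5E itself had 765 and 998 RNA counts and 344 and 513 footprint counts, at -0.06 in RNA (-0.20 to 0.08) and 0.30 in footprints (0.10 to 0.50). The copy took 24.8% and 24.7% of the summed RNA counts, and 27.1% and 37.97% of the summed footprint counts. The exact intervals of its RNA share overlapped (22.2 to 27.6 and 22.4 to 27.1) and those of its footprint share did not (23.2 to 31.4 and 34.6 to 41.4). Summed over both genes the footprint log2 ratio was 0.53 (0.37 to 0.70) and translational efficiency 0.60 (0.39 to 0.80), where ATP5E alone stood at 0.36 (0.12 to 0.60), under 1.5-fold.

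ATP5L2, a copy of ATP5L with 18 differences in 300 aligned bases, had 67 and 75 RNA counts and 20 and 69 footprint counts, too few footprints to be measured. With ATP5L, at 787 and 1006 RNA counts and 427 and 686 footprint counts, the sum stood at 0.48 in footprints (0.31 to 0.65) and 0.58 in translational efficiency (0.37 to 0.80). ATP5S, a coupling factor B homologue, had 199 and 304 RNA counts and 62 and 32 footprint counts, also under the minimum in footprints, with a log2 ratio of -1.22 (-1.89 to -0.59). ATP5SL, which is no subunit, stood at -0.18 in RNA and -0.40 in footprints. ATP5J2-PTCD1 shares exons with ATP5J2, took 45.9% to 49.0% of their summed counts in each library, and stood at 0.19 in RNA and 0.31 in footprints.

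**Figure D3:**
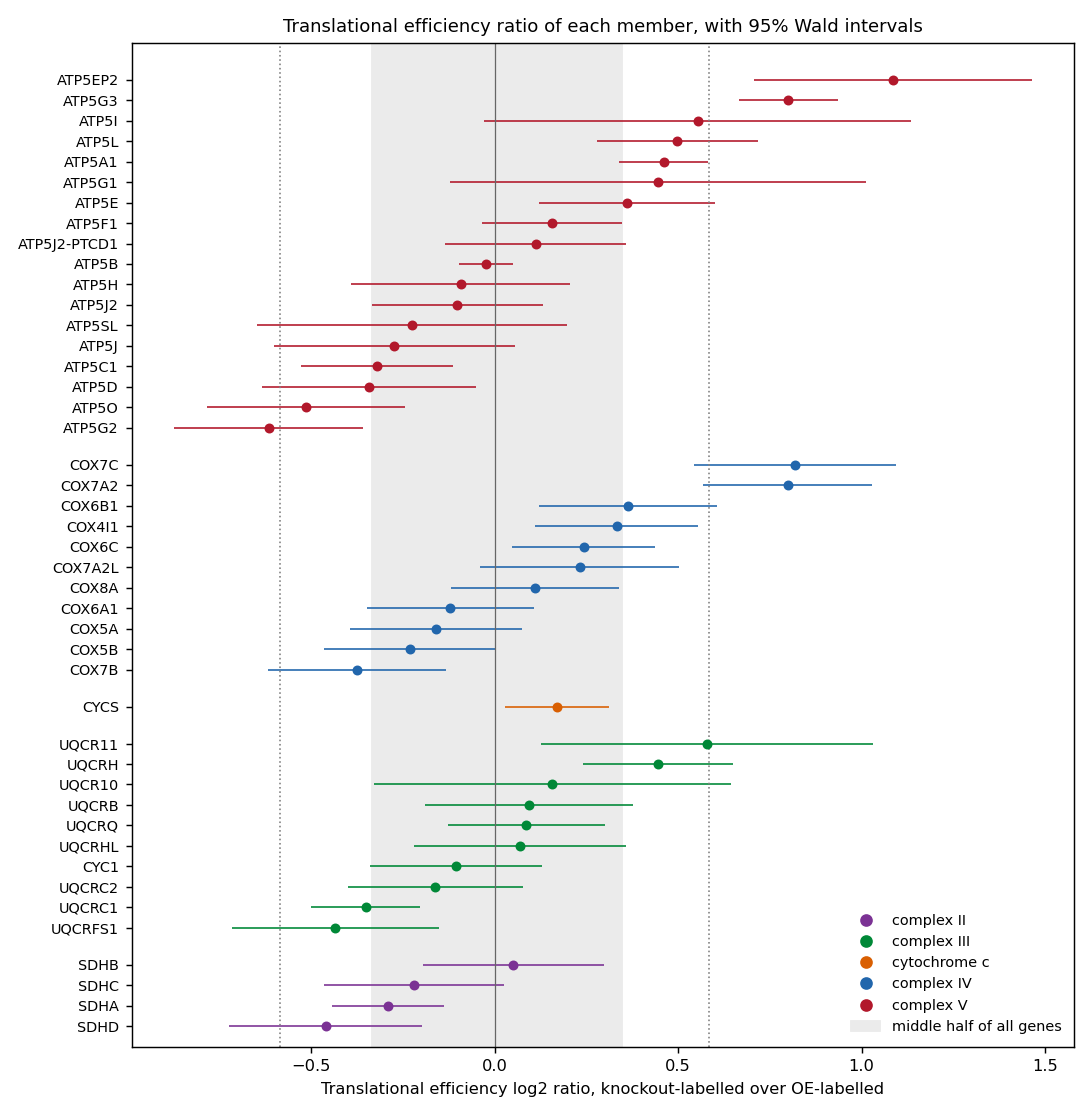
Translational efficiency of each measured member, as the footprint log2 ratio minus the mRNA log2 ratio with its 95% counting interval, grouped by complex, with lines at 1.5-fold. ATP5EP2, COX7C, ATP5G3 and COX7A2 lie above the upper line and ATP5G2 below the lower one, while complex II lies at or below 0.05.

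Within each line most members had more footprint counts for their RNA counts than the median gene. The log2 ratio of the share of footprint counts to the share of RNA counts had a median of 0.96 in the OE-labelled line and 0.76 in the knockout-labelled line, where the medians of all 7260 genes were 0.26 and 0.19. Of the 44 members 38 and 39 lay above the all-gene median. Gene length cancels in this ratio only if RNA and footprints were counted over the same part of the transcript, and as that part is not known, untranslated sequence may enter the order of genes. ATP5G3 was the lowest member at -2.44 and -1.74, and UQCRHL the highest at 2.50 and 2.48. COX6B1, at 1.82 and 2.09, was the highest of the structural subunits, and COX7A2L, at -0.78 and -0.64, was low in both lines. The listed transcript of COX6B1 has 435 bases, 258 of them coding, and that of COX7A2L 3056 bases, 342 of them coding. The 38 complex I subunits lay in the same range, with medians of 1.21 and 0.95.

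Footprint density, as CPM per kb of coding sequence, sets the levels of genes side by side. Reads of genes that share windows with others may be split among copies, so the orders describe the counts as assigned. In complex V the density of ATP5B was 1239.8 in the OE-labelled and 1290.5 in the knockout-labelled line, and that of ATP5A1, its partner in equal copies in the head, was 457 and 536. ATP5C1 and ATP5D, present once per enzyme, had 317 and 260 for the one and 259 and 208 for the other. ATP5O had 312 and 137 and ATP5J 342 and 185, so in the knockout-labelled line both stalk subunits lay below ATP5C1 while in the OE-labelled line they lay beside it. ATP5O shares 67.5% of its windows with other genes, ATP5J 25.4% and ATP5C1 22.2%. ATP5I, at 189 and 102, was the lowest of the structural subunits of this complex apart from ATP5G1, at 68.2 and 67.7. These are single libraries, and orders among neighbours closer than their counting error were not read.

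In complex II the densities of SDHA, SDHB, SDHC and SDHD, which stand in equal copies, were 246, 182, 324 and 376 in the OE-labelled line and 217, 197, 247 and 285 in the knockout-labelled line. The order was the same in both lines, and the spread from lowest to highest was narrower in the knockout-labelled one. In complex III UQCRH had the highest density, 1044.2 and 1285.3, and UQCRC2, at 130.3 and 141, and UQCRFS1, at 185 and 125, were among the lowest. COX6C, at 1477 and 1727, led complex IV, and CYCS, at 1284 and 1833, stood below COX6C in the OE-labelled and above it in the knockout-labelled line. The measured members of complex IV ran from 243 to 1477 in the OE-labelled line. SDHD, SDHC, UQCRH, UQCRFS1 and CYCS share 95.8%, 64.6%, 70.9%, 74.4% and 69.2% of their windows with other genes. Their places in these orders may therefore depend on how reads were assigned, which was not tested.

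Translational efficiency went with the length of the coding sequence. Of the 12 structural subunits under 300 coding bases, 10 lay above 0, with medians of -0.14 in RNA, 0.19 in footprints and 0.30 in translational efficiency. The 15 of 300 to under 600 bases had medians of -0.19, -0.21 and -0.12, and the 11 of 600 bases or more 0.01, -0.07 and -0.16. Over all genes the short class, 185 genes, had a translational efficiency of 0.14, the middle class 0.14 and the long class -0.03. The Spearman rho of translational efficiency with coding length was -0.44 over 43 members and -0.18 over 7252 genes, given as a description since genes share the libraries. It was -0.45 over the 38 structural subunits, and weaker, at -0.33, over the 27 of them with under 50% shared windows.

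The promoter of ATP5I is printed because its mRNA had the largest difference and because NRF1 and GABPA, an ETS factor, are known regulators of many respiratory genes. It comes from the RefSeq annotation (GRCh38.p14) as chr4:674227-674526, minus strand, 5′ to 3′. Capitals mark letters of the core of the NRF1 motif, GCATGCG, which is found there on both strands in 1 overlapping stretch, and of the ETS motif, CCGGAAG, found on the other strand, and the capitals of these motifs do not overlap.
ATP5I: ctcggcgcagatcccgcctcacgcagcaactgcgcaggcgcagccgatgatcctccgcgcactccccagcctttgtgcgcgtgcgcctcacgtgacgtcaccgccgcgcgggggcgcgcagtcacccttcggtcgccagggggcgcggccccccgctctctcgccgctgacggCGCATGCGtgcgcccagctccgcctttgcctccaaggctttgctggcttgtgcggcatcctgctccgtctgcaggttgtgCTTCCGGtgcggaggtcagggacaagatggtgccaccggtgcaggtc

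Of the 52 members 37 matched a promoter of 300 bases, and both strands were searched. The NRF1 and YY1 cores were chosen after longer forms of these motifs had been searched and their results seen, so these shares are a description only. The NRF1 core occurred in 9 of 37 (24.3%), against 6.90% of 7990 promoters of measured genes and 5.14% of 15843 in all. The ETS letters occurred in 14 of 37 (37.8%), against 21.3% and 14.2%. A core of the YY1 motif, ATGGCGG, occurred in 6 of 37 (16.2%), against 11.7% and 7.63%. Of the members lower in RNA, ATP5I and ATP5J had NRF1 and ETS matches, ATP5O had no match to any of these letters, and for ATP5G3 no promoter was searched. CYCS, above 0 in both assays, also had an NRF1 match, so the letters occurred beside differences of both signs.

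The mitochondrially encoded partners stood lower in RNA and, outside complex V, higher in footprints. All 6 genes, MT-CYB of complex III, MT-CO1, MT-CO2 and MT-CO3 of complex IV and MT-ATP6 and MT-ATP8 of complex V, were below 0 in RNA, with a median of -0.32. MT-CO1, the catalytic subunit of complex IV, had 44759 and 48579 RNA counts and 1192 and 2040 footprint counts, at -0.33 in RNA (-0.35 to -0.31) and 0.50 in footprints (0.40 to 0.60). MT-CO2, MT-CO3 and MT-CYB stood at 0.51, 0.40 and 0.39 in footprints. MT-ATP6, the membrane subunit next to the c ring, was the exception, with 957 and 871 RNA counts and 64 and 39 footprint counts, at -0.98 (-1.60 to -0.39). MT-ATP8 had 268 and 211 RNA counts and 49 and 56 footprint counts, at -0.79 in RNA (-1.06 to -0.52) and -0.09 in footprints (-0.66 to 0.50). In translational efficiency 5 of the 6 were at least 1.5-fold higher with TMM, against 13.4% of all genes. So were 43 of the 78 cytosolic ribosomal proteins, so this was not particular to the mitochondrially encoded genes. Of the 5, MT-CYB and MT-CO2, at 0.66 and 0.68, were close enough to 1.5-fold to fall under it with total counts. MT-ATP8, at 0.70 (0.09 to 1.31), was just above the minimum mean count in footprints, as was MT-ATP6. Footprints per RNA of the 6 mitochondrially encoded genes were low in both lines, with medians of -3.60 and -3.46.

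Assembly factors lay on both sides of 0, and their lists are small. Of 6 measured in RNA for complex III none passed 1.5-fold, where 21% of all genes did in either direction, and in footprints 2 of 4 did, where 29% of all genes did. BCS1L, which inserts the Rieske protein UQCRFS1, had 284 and 347 RNA counts and 106 and 280 footprint counts, at -0.16 in RNA (-0.39 to 0.08) and 1.12 in footprints (0.80 to 1.46). Its translational efficiency was 2.42-fold higher while the footprint log2 ratio of its client UQCRFS1 was -0.59, under 1.5-fold in the alternatives named above. UQCC2, which acts on cytochrome b, stood at 0.60 in footprints (0.23 to 0.98). UQCC3, just under the minimum with 58 and 41 footprint counts, stood at -0.77 (-1.39 to -0.17). LYRM7, also under it with 22 and 28, stood at 0.06 (-0.79 to 0.95).

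For complex IV 2 of 22 factors passed 1.5-fold upward in RNA, COX19 at 0.62 (0.38 to 0.86) and CMC1 at 0.60 (0.17 to 1.06), and none downward, 9.09% in all against 21% of all genes. In footprints 3 of 19 were higher, namely COX10, which makes haem A precursor, at 0.89 (0.41 to 1.40), COA6 at 0.78 (0.23 to 1.38) and PET100 at 0.94 (0.56 to 1.35). CMC2 at -0.91 (-1.43 to -0.40) and COA5 at -0.60 (-1.10 to -0.11) were lower, so 26.3% passed against 29% of all genes. In translational efficiency COX10 and COX11, a copper chaperone, were higher at 0.63 (0.11 to 1.16) and 0.70 (0.28 to 1.11), and CMC1, CMC2 and TACO1, an activator of MT-CO1 translation, were lower at -1.15, -0.84 and -0.65, so 27.8% passed against 26.3% of all genes. The factors of 1 complex thus lay on both sides, with a footprint median of -0.05. For complex II SDHAF2, which attaches the flavin to SDHA, was the only factor measured in footprints, and its translational efficiency was 0.94 (0.34 to 1.54). For complex V 1 of 4 factors passed in RNA, where 21% of all genes did, namely C7orf55 at -1.20 (-1.84 to -0.60), with 63 and 37 RNA counts and 52 and 72 footprint counts.

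Complex I subunits and mitochondrial ribosomal proteins, the groups most like these genes, had medians near level as well. Complex I had medians of 0.01 in RNA and -0.12 in footprints over 38 genes. In RNA 1 was higher and 2 lower (all genes 10.5% each way), and in footprints 2 were higher and 3 lower (all genes 15% and 14.1%). The 76 mitochondrial ribosomal proteins had medians of -0.00 in RNA and, over 75 genes, 0.12 in footprints. In RNA 5 were higher and 4 lower (all genes 10.5% each way), and in footprints 11 were higher and 6 lower (all genes 15% and 14.1%). In translational efficiency 23.7% of complex I subunits and 20% of mitochondrial ribosomal proteins passed 1.5-fold in either direction, against 11.4% of the members and 26.3% of all genes. The 78 cytosolic ribosomal proteins stood apart from all of these, with medians of -0.30 in RNA, 0.34 in footprints and 0.70 in translational efficiency, where 43 of them were at least 1.5-fold higher (all genes 13.4%). COX7C, COX7A2 and ATP5G3, at 0.82, 0.80 and 0.80, were named because they passed 1.5-fold, so their nearness to the median of that group follows from the choice. The group ran from -0.29 to 1.38, a range that also holds the members' median of 0.08.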

How the data were processed

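Values are counts as deposited, whole numbers for 19192 genes with 1 named transcript each, per the file headers. The tools cutadapt 1.10, Bowtie 1.1.2 and HISAT2 2.1.0 and the build GRCh38 come from the submitters' processing notes, which state no role or order. Which counter and annotation were used, which part of a transcript was counted and whether the random linker bases served to remove PCR copies is not given in the sources used here. Counted PCR copies would make the intervals too narrow.

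Libraries of an assay were scaled on the whole table with edgeR 4.0.16 (TMM), 0.5 was added to each count, and genes with a mean count of at least 50 were taken as measured. Translational efficiency is the footprint minus the mRNA log2 ratio. With 1 library per line and assay no interaction model could be fitted. Levels within a line used total counts. The alternatives to TMM were total counts, total counts less the genes of the mitochondrial genome, upper quartiles and the size factors of DESeq2 1.42.0, and other alternatives were minimum mean counts of 10 and 200, no minimum, 5 added to each count, structural subunits only and a 2-fold threshold. Subtraction of the median of 40 neighbouring genes, removal of members sharing at least 50% of windows and summing of copies were chosen after seeing the data.

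Of the listed transcripts 19176 were found in GENCODE 29, which gave coordinates, coding sequences and the 30-base windows searched in all its transcripts. Promoters are from RefSeq (GRCh38.p14), and the NRF1 and YY1 cores replaced longer forms whose results had been seen. The code was tested on simulated counts. Members named with counts and intervals are those past 1.5-fold in any ratio with an interval that does not hold 0, those with most RNA in each complex, copies, tissue isoforms and members under the minimum, and assembly factors past 1.5-fold. Values of other members are given as ranges or ratios, and those of SDHB, SDHD, UQCRC2 and the like were added to complete their complex. Members and gene lists were chosen with earlier results of these data known.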

Additional observations from a re-analysis of the deposited data

How the results depend on the processing

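No paired analysis was possible because each line and assay has 1 library. The summary values were counts past 1.5-fold, and medians of the members and of each complex. Under the alternatives 201 were classed as unchanged and 23 as moved, and no called value changed sign. The 23 are counts of a few members or medians near 0. Some medians near 0 changed sign and were still classed as unchanged. With total counts the members' median in translational efficiency went from 0.08 to -0.02, and the complex IV mRNA median from -0.08 to 0.04. The translational efficiency medians of complexes III and V went to -0.02 and -0.05. Scaling by total counts shifts the mRNA median of all genes from 0.01 to 0.13 and that of the members from -0.08 to 0.0339. The members above 0 then go from 18 to 25 of 46, the complex II mRNA median goes to 0.16, 1 member is higher and 1 lower in RNA, and 2 are lower in translational efficiency. Without mitochondrially encoded genes in the total these medians are 0.0314 and 0.15 and the counts 1, 1 and 2. With upper-quartile factors 0 members were lower in translational efficiency, and with a minimum mean count of 10 there were 2. Without a minimum 2 were higher in RNA, 5 higher in footprints and 3 lower in translational efficiency. At 2-fold, 1 was lower in RNA (all genes in either direction 6.48%), 1 higher and 1 lower in footprints (9.09%), and 1 higher and 0 lower in translational efficiency (7.25%). After subtraction of the neighbours' median 1 was lower in RNA and 5 higher in footprints. Apart from the 2-fold threshold, shares of all genes under the settings of this paragraph are not given, so its counts show only how calls depend on the setting. Among members with under 50% shared windows 2 were lower in footprints, a set without ATP5O (67.5% shared) and UQCRFS1 (74.4%).

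ATP5I kept a 1.5-fold difference in RNA under all 8 alternatives that could be run for it (-1.48 to -0.87), while ATP5J, ATP5O and ATP5G3 lost it under both total-count scalings and after subtraction of neighbours (ATP5G3 at -0.45). UQCRFS1 lost it in footprints under 4 alternatives, to -0.33 after subtraction of neighbours, and UQCR10 to 0.50 after that subtraction, as did ATP5I and ATP5J. ATP5G2 lost it in translational efficiency with upper-quartile factors (-0.57). ATP5EP2, ATP5G3, COX7A2 and COX7C kept it in translational efficiency under all 9. The minimum mean count decides only which genes are measured, so alternatives that change it could not move the ratio of a gene. The DESeq2 size factors were close to TMM, with log2 offsets of 0.443 and 0.445 in RNA. The numbers of alternatives kept therefore include some whose outcome was fixed in advance. The cause was not tested, apart from the scalings and subtractions, which shift values by construction.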

Other observations

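The genes of cristae and supercomplex organisation and the regulators of mitochondrial biogenesis were read from lists chosen with earlier results of these data known. CHCHD6, part of the complex that shapes cristae junctions, had 95 and 171 RNA counts and 49 and 135 footprint counts in the OE-labelled and knockout-labelled libraries. Its footprint log2 ratio was 1.18 (0.70 to 1.69). CHCHD3, of the same complex, had a translational efficiency of 0.76 (0.48 to 1.04), with RNA at -0.43 and footprints at 0.33. All 5 genes of that list lay above 0 in translational efficiency, and 2 of them passed 1.5-fold upward, where 13.4% of all genes did.

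Among the regulators, NRF1, a transcription factor of respiratory genes, had 53 and 118 RNA counts and 65 and 67 footprint counts. It stood at 0.70 in RNA (0.23 to 1.21) and -0.94 in translational efficiency (-1.61 to -0.26). TFAM, which packages mitochondrial DNA, stood at 0.66 in footprints (0.46 to 0.86) with its RNA at 0.10. TFB1M, a methyltransferase for mitochondrial ribosomal RNA, stood at -0.88 in RNA (-1.22 to -0.55). GABPA stood at -0.81 in footprints (-1.09 to -0.53). The regulators thus lay on both sides of 0.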
